A study of Arabidopsis thaliana with 4 samples.

Results

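The WSD genes of Arabidopsis thaliana encode enzymes of the wax ester synthase/diacylglycerol acyltransferase type. The family was represented by 10 loci, and a locus counted as measured when the array annotation paired a probe set with that locus alone. Of the 10 loci, 5 were measured, out of 13333 loci with a probe set of their own in that annotation. It covered 14016 of the 22810 probe sets on the array. A locus counted as not measured may therefore have a probe set that the annotation leaves unnamed. Each of the 5 had 1 such probe set, so no choice between a brighter and a dimmer one arose. The family was chosen by the measured rise of one of its genes, AT5G12420, between the groups compared below, so the values of that gene are a description and no independent evidence.

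The arrays compared 2 samples of DEX-treated seedlings with 2 samples of mock-treated seedlings, all carrying 35S::Dof3.2-GR. The DEX seedlings received 10 µM dexamethasone, a synthetic glucocorticoid, for 3 h, and the mock seedlings a control treatment. In both groups the viral 35S promoter drives, in most tissues, a fusion of the Dof zinc finger protein Dof3.2 to the steroid-binding part of the glucocorticoid receptor, which keeps the fusion out of the nucleus until the steroid is present. All seedlings had grown at 22 °C, first for 4 days on kanamycin agar (50 µg/ml; 1% sucrose) and then for 4 more days in shaken liquid culture. The labels name no separate lines or cultures for the replicates, so the p-values below measure only the spread between these samples, which may be technical. Seedlings without the fusion were not analysed here, and effects of DEX itself and of the fusion cannot be told apart.

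A wax ester joins a long-chain fatty alcohol to a fatty acid. WSD enzymes catalyse that last step from an acyl-CoA and an alcohol, and some can also transfer the acyl group to diacylglycerol, which gives the storage lipid triacylglycerol. Wax esters are a minor part of the cuticular wax that covers the aerial epidermis of Arabidopsis. In the family, WSD1 (AT5G37300) is known as the enzyme that makes the wax esters of stems, and FOP1 (AT5G53390) is named for the folded petals of its mutant.

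After DEX, AT5G12420 had about 2 times its mock signal, while the other WSD genes that were bright enough to test showed smaller differences, in opposite directions. AT3G49190 was lower and AT3G49210 slightly higher in DEX seedlings, and neither passed the test. WSD1 and AT1G72110 gave signals close to nothing in both groups. AT3G49200, AT5G16350, AT5G22490, AT5G53380 and FOP1 had no probe set paired with them in the annotation used and were not analysed here.

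AT5G12420 had MAS5 signals of 484.6 and 434.2 on the DEX arrays, against 245.6 and 214.4 on the mock arrays. Both DEX values lay well above both mock values. The means were 459.4 ± 35.6 in DEX seedlings and 230.1 ± 22.1 in mock seedlings (SD, n = 2 each). The fitted difference was a log2 change of 1.00 ± 0.15 (SE), which is 2.00-fold, with a 95% interval of 0.67 to 1.32. The DEX replicates of this gene differed by 0.16 on the log2 scale and the mock replicates by 0.20. Over all tested probe sets the median replicate difference was 0.12 between the DEX arrays and 0.16 between the mock arrays, so the replicates of AT5G12420 lay somewhat further apart than the median in both groups, and far closer than the groups.

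**Figure D1:**
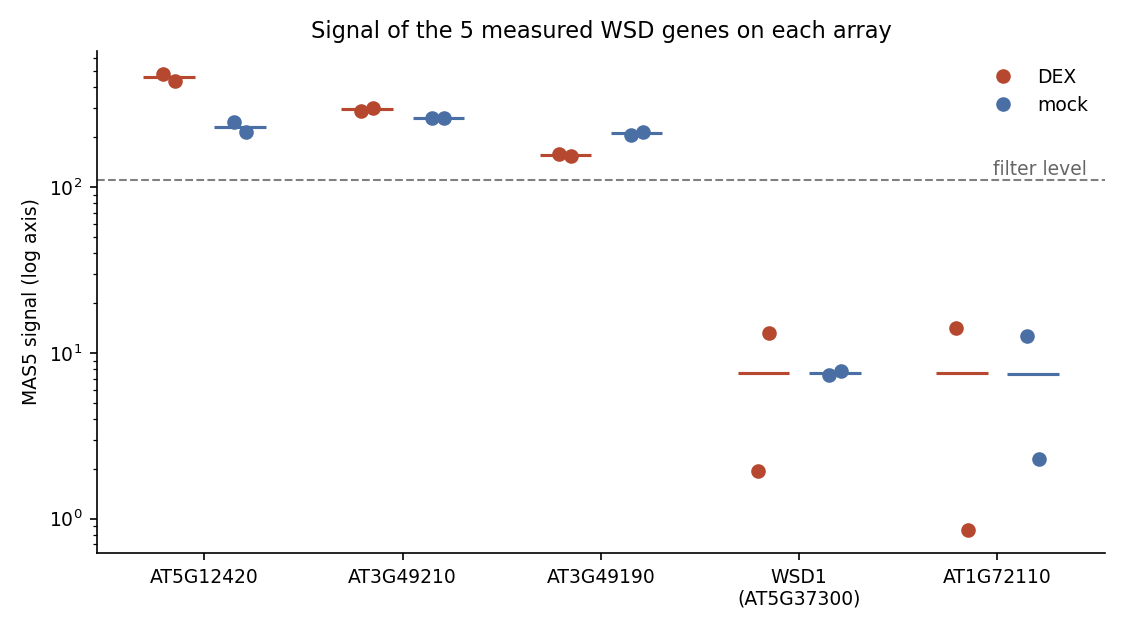
MAS5 signal (log axis) of the 5 measured WSD genes, with DEX arrays to the left of mock arrays, a point for each array and a bar for the group mean. AT5G12420, AT3G49210 and AT3G49190 lie above the filter level of 110.6 on every array and their groups do not overlap, while WSD1 and AT1G72110 lie far below it; signals of different probe sets cannot be compared with each other.

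AT3G49190 had signals of 158.3 and 153.9 on the DEX arrays, against 207.2 and 216.6 on the mock arrays. The groups did not overlap, with DEX below mock. Its log2 change was -0.44 ± 0.16 (SE; 95% interval -0.80 to -0.09), and it did not pass after adjustment over all tested probe sets (adjusted p = 0.402, limma with Benjamini-Hochberg adjustment, two-sided). AT3G49210 had signals of 290.1 and 301.2 on the DEX arrays, against 263 and 261.2 on the mock arrays. These groups did not overlap either, with DEX above mock, but the log2 change was only 0.17 ± 0.14 (SE; 95% interval -0.14 to 0.49; adjusted p = 0.782, limma). The smallest change called anywhere on the arrays was 1.53-fold, and AT3G49190 and AT3G49210 differed by less, 1.36-fold lower and 1.13-fold higher in DEX. AT3G49190, AT3G49200 and AT3G49210 follow each other on chromosome 3 in the RefSeq gene order, with no other protein-coding gene between them. The fitted changes of the outer genes of this row had opposite signs, but the interval of AT3G49210 included 0. The difference between the 2 changes was not tested.

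WSD1 had signals of 1.93 and 13.2 on the DEX arrays, against 7.35 and 7.8 on the mock arrays. AT1G72110 had signals of 14.2 and 0.851 on the DEX arrays, against 12.6 and 2.3 on the mock arrays. In both genes the signals of replicates of a group spread more widely than the mean signals of the groups differed. On the log2 scale this did not hold for the mock replicates of WSD1. They lay 0.09 apart, against a log2 change of -0.59 in a fit of all probe sets. The filter level, below which the mean of a probe set was left out of the test, was a signal of 110.6, and all values of these genes lay far under it. A fit of all probe sets gave standard errors of 1.07 for WSD1 and 1.5 for AT1G72110 on the log2 scale, so a change of several fold would not have been detectable in either gene.

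Of the 3 tested WSD genes, 1 rose (AT5G12420, the gene by which the family was chosen), 0 fell and 2 did not pass. Over all tested probe sets, 0.293% rose and 0.293% fell, together 0.586%. The groups did not overlap in any of the 3 WSD genes, a property shared by 39.3% of all tested probe sets. An unadjusted p under 0.05 (limma) was given to 2 of the 3, AT5G12420 and AT3G49190, against 9.25% of all tested probe sets. The change of AT5G12420 was known when the family was chosen, so this count and the median below are descriptions. The median log2 change was 0.17 over the 3 genes and -0.01 over all tested probe sets. With 2 arrays against 2, permuting the group labels exactly gives no two-sided p below 0.333 for any gene.

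**Figure D2:**
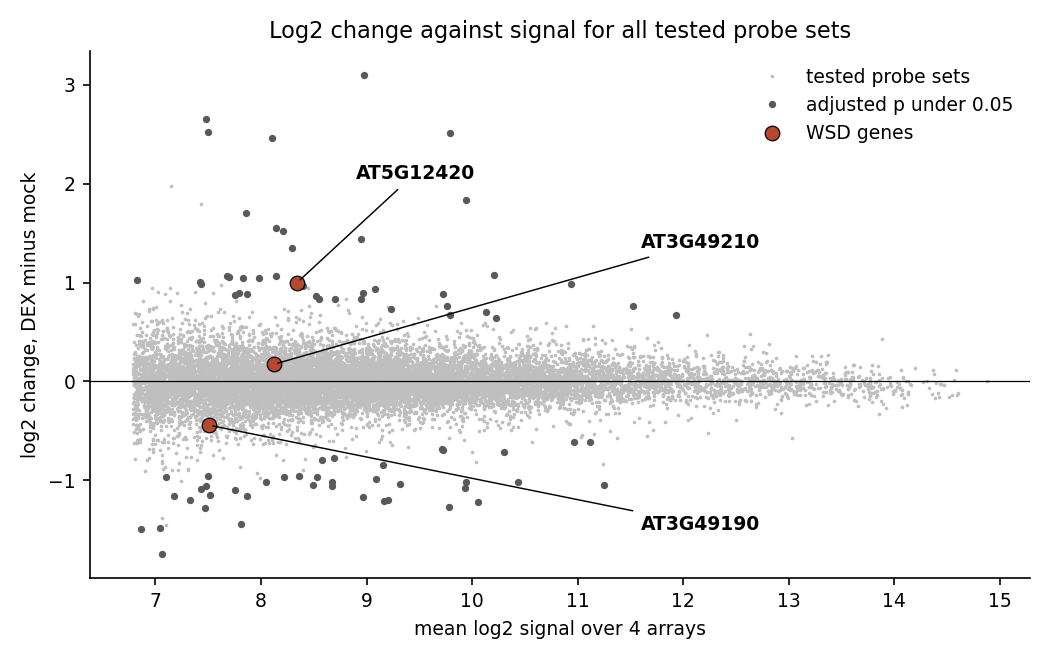
Log2 change (DEX minus mock) against the mean log2 signal over the 4 arrays for the 13648 tested probe sets in light grey, the called ones in dark grey and the 3 tested WSD genes in red. AT5G12420, at 1.00, lies among the called probe sets, and AT3G49210 and AT3G49190, at 0.17 and -0.44, lie within the grey cloud.

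The call of AT5G12420 was lost when either DEX array was left out. Without DEX replicate 1 the log2 change was 0.92 ± 0.22 (SE), and without DEX replicate 2 it was 1.08 ± 0.22. Without mock replicate 1 or 2 it was 1.10 ± 0.16 and 0.90 ± 0.16, and the call was kept. A fit without 1 array takes the spread within groups from the 2 arrays of the other group. Over all tested probe sets the mock arrays lay further apart than the DEX arrays, at a median of 0.16 against 0.12. Whether the losses reflect the DEX signals of this gene or the spread between the mock arrays was not tested. With dim probe sets kept in the test, the change was the same 1.00 and the adjusted p was 0.0677 (limma). The size of the change thus moved little, and the call was lost in 3 of the 13 alternative settings.

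**Figure D3:**
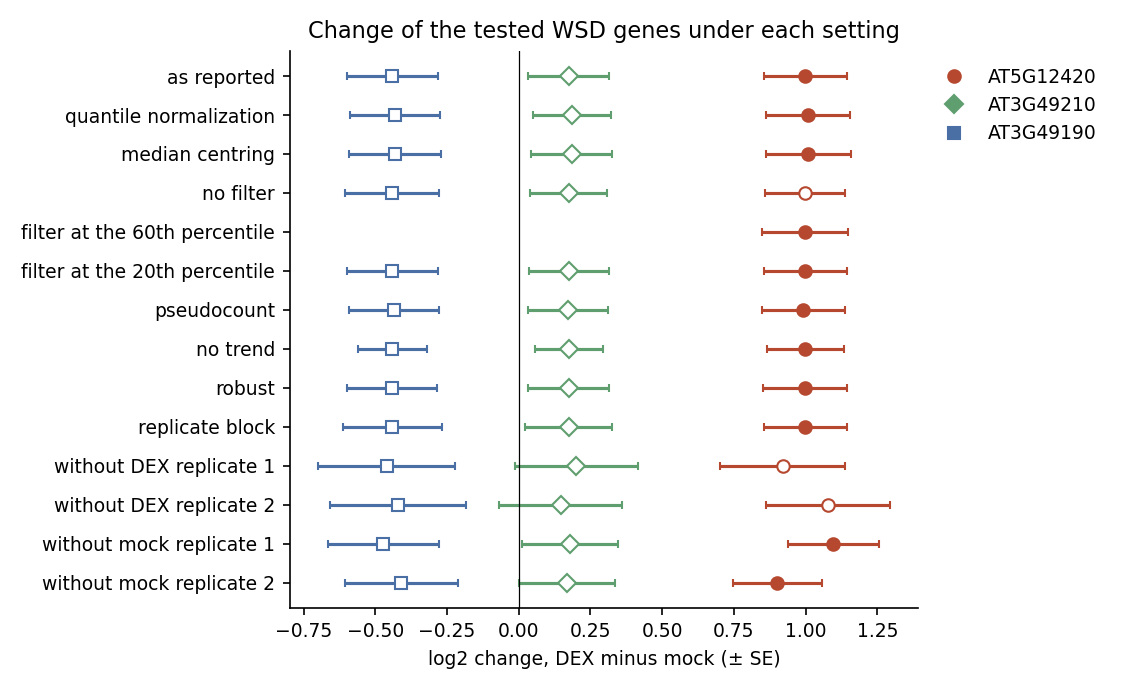
Log2 change (DEX minus mock, ± SE) of the 3 tested WSD genes as reported and under each of 13 alternative settings, with filled symbols where the adjusted p was under 0.05. AT5G12420 stays between 0.90 and 1.10, with open symbols without the filter and without either DEX array; AT3G49190 and AT3G49210 have open symbols throughout and no value under the strictest filter.

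Signs of RNA quality and tissue content were read beside these values. The arrays had median signals of 190.6 to 193.3 and correlated across tested probe sets at r = 0.992 within the DEX group, 0.985 within the mock group and 0.982 to 0.986 between groups. Of the 6 ratios of 3′ to 5′ signal for plant control transcripts, 1 separated the groups. The signals of 39.3% of all tested probe sets did so, but that share is of single signals and not of ratios. The newer ubiquitin probe sets had 1.37 on both DEX arrays, against 1.58 and 1.48 on the mock arrays. The highest ratios were those of the older actin probe sets, 18.6 and 17.3 on the DEX arrays, against 10.5 and 18.5 on the mock arrays. The part of RNA quality in the change of AT5G12420 was not tested. The summed signal of the 4 of 4 measured green tissue markers was 52051 and 44809 on the DEX arrays, against 50193 and 52826 on the mock arrays, and that of 2 of 4 root markers, mostly the root β-glucosidase gene PYK10, was 13789 and 14760 against 13634 and 14223. The 2 of 3 guard cell lineage markers, FMA and SPCH, summed to 295.7 and 252.2 on the DEX arrays, against 292.8 on both mock arrays. None of these 8 markers passed the test, and 0 had an unadjusted p under 0.05 (limma). Over all tested probe sets these shares were 0.586% and 9.25%, so a count of 0 among 8 markers says little. The groups overlapped in each sum. Among the single markers, PORB of green tissue was the one whose groups did not overlap, with 3700 and 4099 on the DEX arrays, against 4303 and 4830 on the mock arrays. The 4 epidermis and 3 seed and embryo markers were not paired with any single-gene probe set in the annotation used. The epidermis, where cuticular wax is made, could therefore not be followed. In whole seedlings, fewer cells of a type and less RNA per cell cannot be told apart.

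Other genes of surface and storage lipids were looked at through 7 lists, covering wax synthesis and export, fatty acyl reductases, the KCS elongases that build very-long-chain acyl chains, cutin, suberin, triacylglycerol, and regulators of wax and cutin. The lists held 96 genes, of which 9 had a probe set of their own and 5 were bright enough to test. None of the 5 passed, and 0 had an unadjusted p under 0.05 (limma). Over all tested probe sets these shares were 0.586% and 9.25%, so a count of 0 among 5 genes says little. The median log2 change of the 5 was -0.07. The genes of fatty acyl reductases, which supply the alcohol for a wax ester, of the KCS elongases and of cutin synthesis were not paired with a probe set of their own, and probe sets shared by several genes were not used, so these steps were not analysed here.

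CER26, a helper of acyl chain elongation in leaf wax, had signals of 1276 and 1102 on the DEX arrays, against 1340 and 1200 on the mock arrays, and a log2 change of -0.10 ± 0.12 (SE). FATB, a thioesterase that releases saturated fatty acids from the plastid, had 1207 and 1193 in DEX seedlings, against 1493 and 1064 in mock seedlings, and a log2 change of -0.07 ± 0.15 (SE). The groups overlapped in both genes. FACT, which couples fatty alcohols to caffeic acid for root waxes, had 292.1 and 238.1 on the DEX arrays, against 225.5 and 272.2 on the mock arrays. SDP1, the main lipase of stored triacylglycerol, had 379.8 and 377.9 on the DEX arrays, against 366.4 and 387.9 on the mock arrays. Their log2 changes were 0.09 ± 0.17 and 0.01 ± 0.13 (SE), with overlapping groups. DEWAX, a transcription factor that represses wax genes, had 1580 and 1464 in DEX seedlings, against 1458 and 1879 in mock seedlings, and a log2 change of -0.12 ± 0.13 (SE). SHN3, a regulator of cutin, and 3 more listed genes, AT1G02190, AT3G23840 and AT3G44830, had means under the filter level and were not tested.

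**Figure D4:**
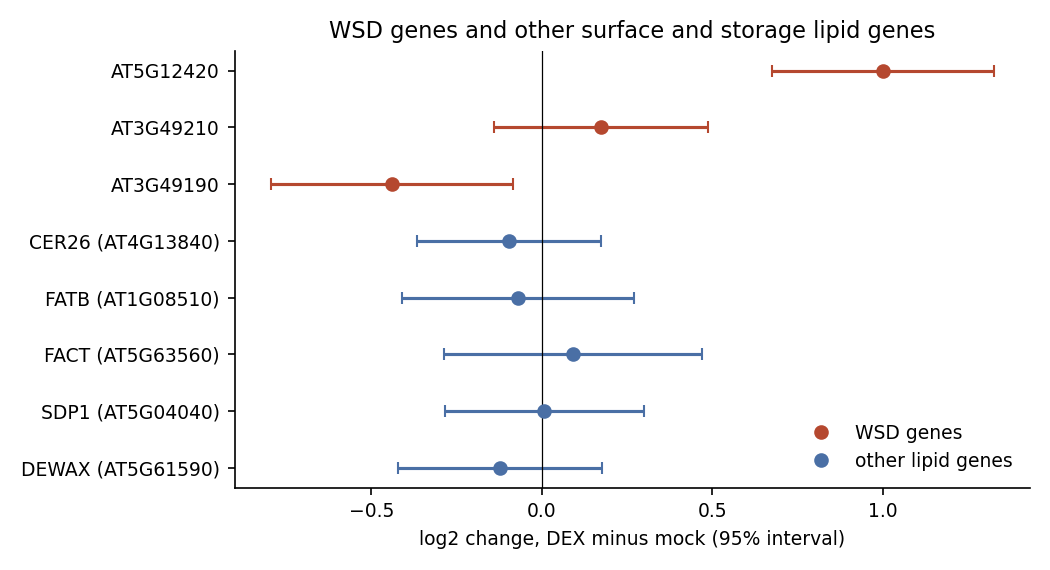
Log2 change (DEX minus mock) with its 95% interval for the 3 tested WSD genes in red and the 5 tested genes of other lipid steps in blue. The interval of AT5G12420 runs from 0.67 to 1.32, and the intervals of the 5 other lipid genes all include 0.

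The genes most like AT5G12420 over the 4 arrays were found by the distance between log2 signals after each gene was centred on its own mean. Among 7287 other tested probe sets with a single gene, the nearest were AT5G09800 at a distance of 0.08, AT3G02910 at 0.10 and AT5G52680 at 0.12, against a median distance of 1.04. AT5G09800 had signals of 164.5 and 158.1 on the DEX arrays, against 83.8 and 75.2 on the mock arrays. AT3G02910 had 2842 and 2661 on the DEX arrays, against 1426 and 1356 on the mock arrays. AT5G52680 had 182.3 and 174.2 on the DEX arrays, against 103.2 and 87.3 on the mock arrays. AT5G09800 and AT5G52680 were under the filter level of 110.6 on both mock arrays and entered the test through their higher DEX signals, so the size of their changes is uncertain. All 3 had a higher first DEX array and a lower second mock array, as AT5G12420 did, an order that the choice by distance favours. Their log2 changes were 1.02 ± 0.19, 0.98 ± 0.10 and 0.91 ± 0.18 (SE), close to that of AT5G12420 by construction. AT5G09800 and AT3G02910 passed the test (adjusted p = 0.0498 and 0.00332, limma), and AT5G52680 did not (adjusted p = 0.0818, limma). This likeness rests on 4 arrays and mostly on the one difference between the groups, so it is a description.

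**Figure D5:**
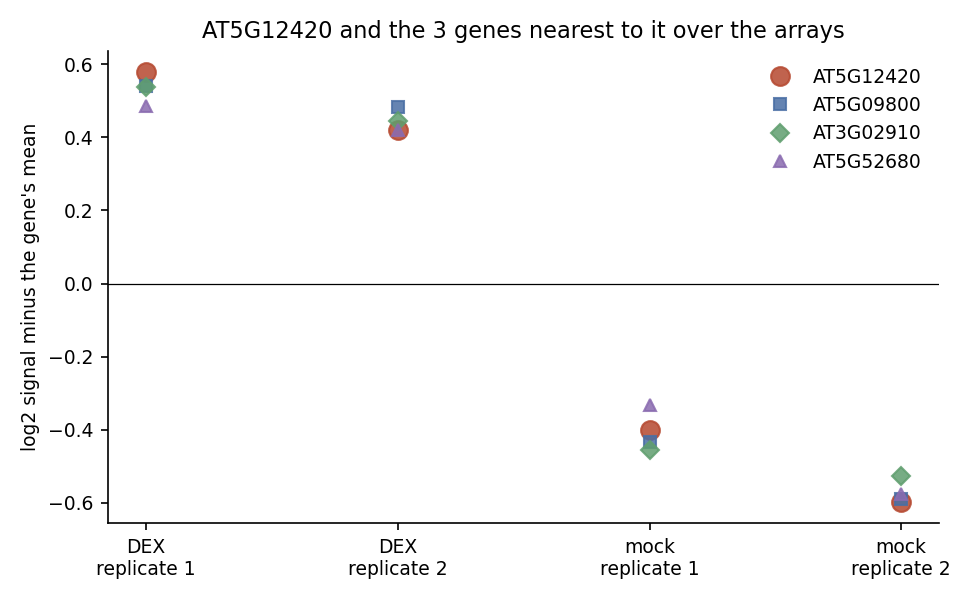
Log2 signal of AT5G12420 and of the 3 genes nearest to it, each minus its own mean, on the 4 arrays. All 4 genes lie above 0 on the DEX arrays, at 0.42 to 0.58, and below 0 on the mock arrays, at -0.33 to -0.60.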

How the data were processed

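The data were 4 Affymetrix arrays with one colour each, 2 for DEX and 2 for mock seedlings, with groups taken from the sample titles. The deposited values are intensities, made by the authors with MAS5 per the submitters' processing notes; its version and settings are not stated there. Each array is scaled as a whole, and the mean after trimming 2% at each end was 499.8 on every array. Signals were put on the log2 scale with no pseudocount. Of 22810 probe sets, 64 controls were left out, and 13648 with a mean at or above the 40th percentile were tested. Probe sets were named from the platform annotation through the RefSeq gene table of TAIR10.1, in which 13484 matched a single locus. As the array's genome build is not given, only gene order was used.

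The contrast of DEX minus mock was fitted by limma (version 3.58.1, under R version 4.3.3) from a group term alone, with a mean-variance trend and Benjamini-Hochberg adjustment over all tested probe sets at 0.05. Of 9.74 degrees of freedom, 2 came from the arrays, and the rest from the spread shared over probe sets. The number of arrays limits the precision. Named are all WSD loci, up to 4 tested genes per list with the lowest p, and the 3 genes nearest to AT5G12420. The members and lists were chosen with earlier results of these data known. Alternatives were another normalization, filter, pseudocount or variance model, a replicate block, and each array left out.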

Additional observations from a re-analysis of the deposited data

How the results depend on the processing

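The directions of AT5G12420, AT3G49190 and AT3G49210 were kept in every alternative that tested them. The log2 change of AT5G12420 was past the threshold in 10 of 13 alternatives. It was 1.00 without the filter (adjusted p = 0.0677, limma), and 0.90 to 1.10 with 1 array left out, where the call was lost without either DEX array. The count of WSD genes called, 1 as reported, was accordingly 0 without the filter and 0 to 1 with an array left out. AT3G49190 ranged from -0.47 to -0.41 and AT3G49210 from 0.15 to 0.20, not past the threshold in any of 12 alternatives each; the filter at the 60th percentile left both out. None of the tested lipid list genes was called under any alternative (limma). Over all probe sets, 80 were called as reported, 25 without the filter, 43 with the filter at the 60th percentile and 25 to 496 with an array left out. A fit without 1 array assumes that the lone sample varies like the other group. Same-numbered replicates shared only a number in the labels; their deviations correlated at r = 0.109. In a fit with a block for the replicate number, 185 probe sets were called, and AT5G12420 kept its change of 1.00 (adjusted p = 0.00213, limma). Another probe set per locus could not be tried, since each measured locus had 1.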

Other observations

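The genes around AT5G12420 were looked at after its values had been seen. Of the 5 protein-coding genes on each side in the RefSeq order, 8 had a probe set of their own and 6 were bright enough to test. None of the 6 was called, and 0 had an unadjusted p under 0.05 (limma). Over all tested probe sets these shares were 0.586% and 9.25%, so a count of 0 among 6 genes says little. The log2 changes of the 6 ran from -0.29 to 0.11. DEX lay below mock without overlap in AT5G12400, AT5G12410 and AT5G12440, and the groups overlapped in AT5G12370, AT5G12390 and AT5G12470. Groups did not overlap in 39.3% of all tested probe sets. AT5G12410, the next gene on one side, had signals of 769.5 and 848.1 on the DEX arrays, against 882.9 and 881.2 on the mock arrays. AT5G12430, the next gene on the other side, was not analysed here.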
